A study of Homo sapiens with 16 samples.

Results

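The sterol and fatty acid synthesis genes described here are 34 genes listed by symbol for their part in the mevalonate and sterol pathway, its SREBP regulators or fatty acid synthesis, and all 34 were found among the 23575 symbols of the count table. Of these, 8 act in the mevalonate and isoprenoid steps, 11 act from squalene to sterols, 7 are SREBP regulators or sterol transport proteins, and 8 act in fatty acid synthesis. RNA was sequenced from HL-60, a human promyelocytic leukaemia cell line labelled wild type, after exposure to lipoteichoic acid (LTA), a cell wall polymer of Gram-positive bacteria, here from Staphylococcus aureus. Differentiated cells (dHL-60), a neutrophil-like model made by an agent that the labels used here do not name, were sampled at 4 h and at 24 h, untreated or with 1 or 10 µg/ml LTA, with 2 libraries in each of these 6 groups. Undifferentiated cells (uHL-60) were sampled with 1 µg/ml LTA or untreated at 4 h and at 24 h, with 1 library in each of these 4 groups. All groups come from this 1 line, and nothing in the labels says that the libraries of a group came from separately differentiated cultures, so the p-values measure the spread between these libraries, which may be technical.

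As background, cells build cholesterol from acetyl-CoA through mevalonate, isoprenoid pyrophosphates, squalene and lanosterol, and build fatty acids from acetyl-CoA through malonyl-CoA, elongation and desaturation. Both routes are under the control of the sterol regulatory element-binding proteins (SREBPs), which are made as membrane-bound precursors, held in the endoplasmic reticulum by SCAP and INSIG proteins while sterols are plentiful, and carried by SCAP to the Golgi for cleavage when sterols are scarce. The released factor binds sterol regulatory elements in promoters, commonly beside sites for NF-Y, which binds CCAAT, and for Sp1, which binds GC boxes. Myeloid cells are known to alter lipid synthesis when Toll-like receptors are engaged.

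Library totals ran from 9653374 to 20157081 counts, and levels below are CPM (read counts scaled to a common library size, with TMM factors that correct for composition). The 34 genes together took 0.676% and 0.751% of counts in dHL-60 with 10 µg/ml LTA at 24 h, against 0.325% and 0.349% in untreated dHL-60 at 24 h. The uHL-60 columns of the deposited table follow another sort order than its symbols and were realigned, which moved 2 of the 34 genes, INSIG1 and INSIG2. The label of the cells was checked against markers. ITGAM, an integrin of mature myeloid cells, ranged from 64.5 to 255 CPM in dHL-60 and from 1.14 to 2.12 CPM in uHL-60, whereas FCGR3B, a receptor of mature neutrophils, stayed at or under 1.46 CPM in every dHL-60 library. CXCR2, another mature neutrophil marker, went the other way, with medians of 17.6 CPM in dHL-60 and 23.2 CPM in uHL-60. All other mature neutrophil markers listed had the higher median in dHL-60. The sum of 10 monocyte and macrophage markers was 1245 to 1389 CPM with 10 µg/ml LTA at 24 h, with 2 of the 10 at 0, against 144 to 151 CPM in untreated dHL-60 at 24 h, with 1 at 0. At 4 h it was 654 to 750.2 CPM with 10 µg/ml LTA and 462.5 to 600.5 CPM untreated. Most of this sum was CD14 (138 to 1366 CPM over dHL-60), and the macrophage receptors MRC1 and MSR1 stayed at or under 0.197 and 0.0731 CPM. The sum of 8 mature neutrophil markers was 2562 to 2602 CPM with 10 µg/ml LTA at 24 h, against 904 to 905 CPM in untreated dHL-60 at 24 h, and the sum of 4 promyelocyte markers was 4493 to 5496 CPM against 15370 to 20450 CPM. At 4 h the neutrophil sum was 3069 to 3680 CPM with 10 µg/ml LTA and 2230 to 2552 CPM untreated. The promyelocyte sum at 4 h was 6543 to 7886 CPM with 10 µg/ml LTA and 7932 to 10530 CPM untreated. In untreated dHL-60 the neutrophil and monocyte sums were thus lower at 24 h than at 4 h, and the promyelocyte sum was higher. Most of the promyelocyte sum was MPO (4209 to 18420 CPM over dHL-60). AZU1, of the same list, had medians of 237 CPM in dHL-60 and 222 CPM in uHL-60, while the other promyelocyte markers had the lower median in dHL-60. The part of these markers in the results below was not tested, and in bulk RNA fewer cells of a type and less RNA per cell cannot be told apart. Replicate 2 stood above replicate 1 for many of the 34 genes, for 24, 27 and 29 of them at 4 h in the untreated, 1 µg/ml and 10 µg/ml groups and for 18, 26 and 19 at 24 h, where the share of all genes ran from 47.2% to 52.1% over the 6 groups.

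Promoter sequences from RefSeq (GRCh38.p14) were matched for 30 of the 34 genes, and the 250 bases before each start were searched on both strands. For 26 of the 30, bases 21 to 50 after the start lay in an annotated transcript of the gene. For some genes, among them ACLY, PMVK, DHCR7, MVK and SCAP, the window lies within the annotated gene and does not precede its outermost start. FDFT1, SQLE, ACAT2 and FASN were not matched. A CCAAT was found in 19 of 30 promoters (63.3%), against 32.7% of 22197 promoters of protein-coding genes. A GC box, GGGCGG, was found in 27 of 30 (90%, against 53.7%). The E-box CACGTG, a letter pattern that SREBPs can also bind, was found in 3 of 30 (10%, against 7.37%), in SC5D, INSIG1 and SCAP. An SRE-like pattern, TCACNCCAC, was found in 1 of 30 (3.33%, against 0.883%), in SREBF2. A match is a description of letters, not a bound site, and the only overlaps were of GC boxes with each other in ACACA and INSIG1 and of CCAAT matches with each other in NSDHL. Stretches are shown for 4 genes, each with a CCAAT match, and do not stand for the other promoters. FADS1 and FADS2, which changed most with 10 µg/ml LTA at 24 h, held no CCAAT in their 250 bases. The stretches lie upstream of the first base of any annotated transcript of the gene, 5′ to 3′ on the gene's strand. CCAAT (or its complement ATTGG) and the SRE-like pattern are in capitals. They are MVD at chr16:88663162-88663341 on the minus strand, STARD4 at chr5:111512591-111512785 on the minus strand, INSIG1 at chr7:155297628-155297775 on the plus strand and SREBF2 at chr22:41832855-41833078 on the plus strand.
MVD: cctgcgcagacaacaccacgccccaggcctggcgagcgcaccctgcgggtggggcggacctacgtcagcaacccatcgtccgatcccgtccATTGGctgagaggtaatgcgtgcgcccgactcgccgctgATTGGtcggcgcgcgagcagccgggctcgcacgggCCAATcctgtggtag
STARD4: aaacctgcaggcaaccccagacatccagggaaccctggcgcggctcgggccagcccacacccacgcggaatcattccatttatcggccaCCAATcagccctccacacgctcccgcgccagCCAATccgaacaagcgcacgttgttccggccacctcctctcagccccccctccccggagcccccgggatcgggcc
INSIG1: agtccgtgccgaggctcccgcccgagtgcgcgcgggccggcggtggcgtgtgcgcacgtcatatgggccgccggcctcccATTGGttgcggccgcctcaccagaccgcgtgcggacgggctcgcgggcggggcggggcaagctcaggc
SREBF2: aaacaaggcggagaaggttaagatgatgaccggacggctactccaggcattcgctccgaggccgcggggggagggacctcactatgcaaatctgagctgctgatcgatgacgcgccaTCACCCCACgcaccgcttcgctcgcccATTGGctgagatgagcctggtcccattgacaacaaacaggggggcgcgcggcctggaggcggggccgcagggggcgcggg
The MVD stretch shows 3 CCAAT matches, STARD4 shows 2, and INSIG1 shows 1. SREBF2 shows 1 CCAAT match downstream of the SRE-like pattern, whose first base lies 133 bases before the start. FADS2 and GGPS1 held none of the 4 patterns in their 250 bases, and no match says only that these letters are not in this window. Whether the matches go with the responses given below was not tested.

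In dHL-60 with 10 µg/ml LTA at 24 h, 29 of the 33 genes tested were higher than in untreated dHL-60 at 24 h and 0 were lower (edgeR quasi-likelihood test, Benjamini-Hochberg adjusted p under 0.05 over 11866 genes). Over all genes tested, 23.6% were called higher and 19% lower. The median log2 fold change of the 33 genes was 1.34, against -0.01 for all genes tested. ELOVL6, a fatty acid elongase, had 0 to 21 counts per dHL-60 library and was not tested. The 4 genes not called were PMVK, SCAP, FASN and ACACA. Leaving out 1 of the 4 libraries compared gave 25 to 28 called genes, and 24 of the 29 calls held whichever library was left out. The other 5 were ACLY, CYP51A1, GGPS1, INSIG2 and SC5D.

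**Figure D1:**
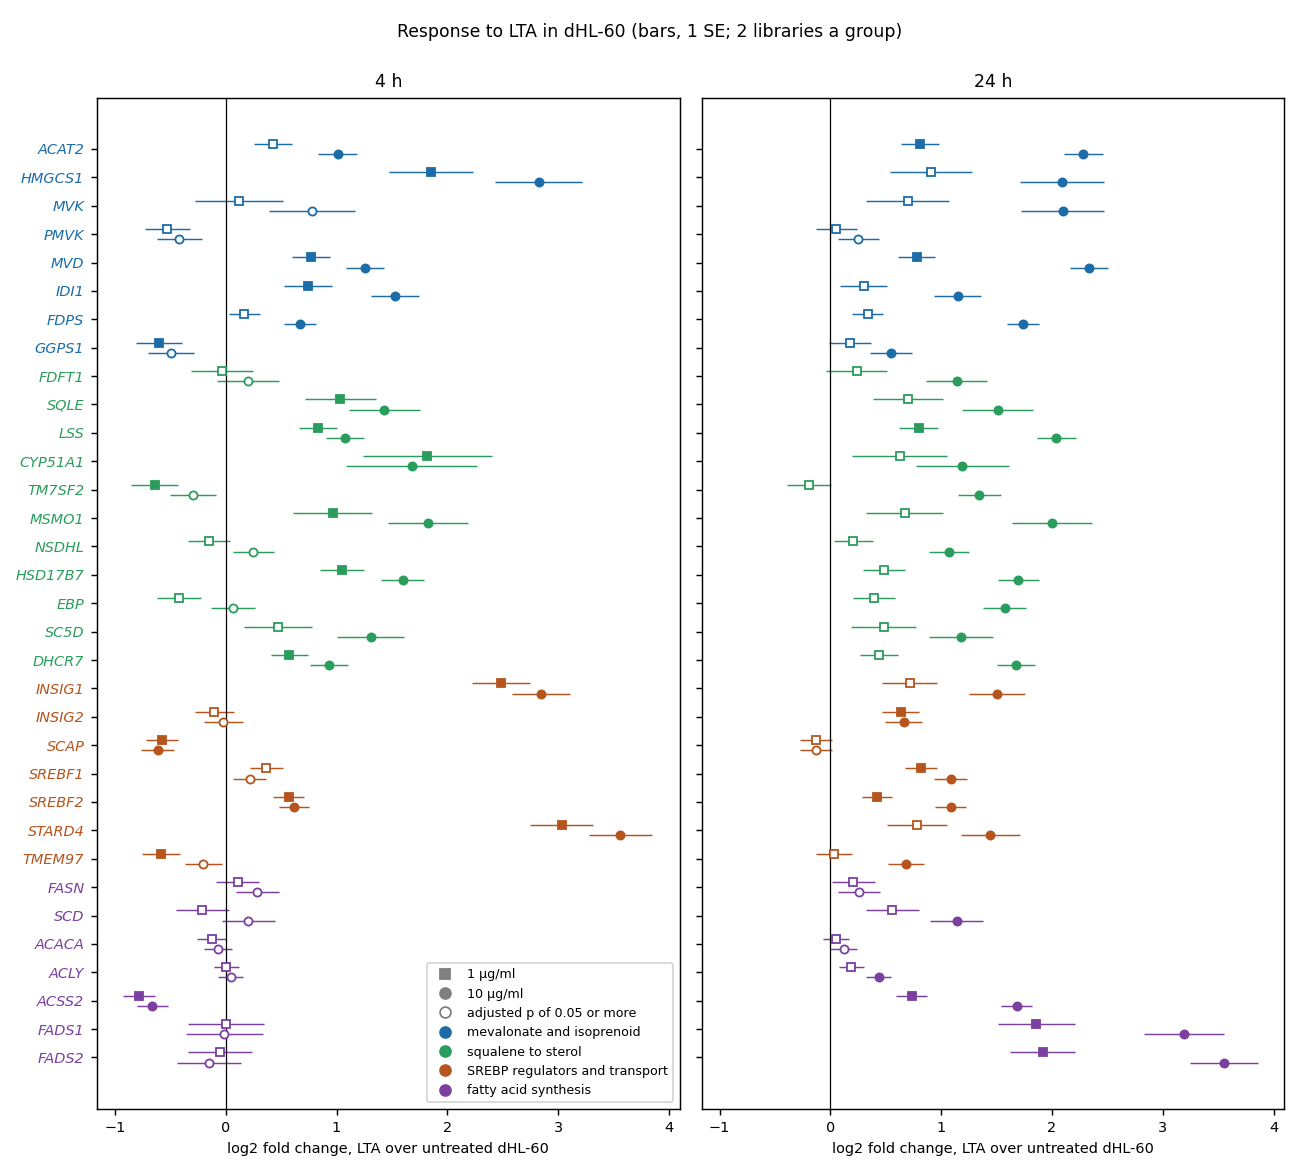
Log2 fold change of LTA over untreated dHL-60 for the 33 genes tested, at 4 h (left) and 24 h (right), coloured by role. Squares are 1 µg/ml, circles 10 µg/ml, bars 1 SE, and open symbols did not pass an adjusted p of 0.05. At 24 h the circles of 29 genes are filled and lie right of 0, and at 4 h STARD4, INSIG1 and HMGCS1 lie farthest to the right.

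Of the 8 mevalonate and isoprenoid genes, 7 rose with 10 µg/ml LTA at 24 h, with a median log2 fold change of 1.92. ACAT2 makes acetoacetyl-CoA in the cytosol, the first substrate of the route. It had 266 and 269 CPM with 10 µg/ml LTA, against 56.9 and 54.8 CPM untreated (log2 fold change 2.28 ± 0.18 SE, adjusted p = 4.5e-07). Of its exon bases, 52.3% are shared with genes on the opposite strand, among them SOD2, a mitochondrial superoxide dismutase at 419 to 457 CPM with 10 µg/ml LTA and 61.6 to 84.8 CPM untreated. Whether reads were counted by strand is not stated in the labels, so the value of ACAT2 is uncertain. HMGCS1, the cytosolic HMG-CoA synthase, had 379 and 548 CPM with LTA and 117 and 104 CPM untreated (2.09 ± 0.38, adjusted p = 0.000631). MVK, which phosphorylates mevalonate, had 77.0 and 62.1 CPM with LTA and 15.2 and 17.9 CPM untreated (2.1 ± 0.38, adjusted p = 0.000592). In each of these genes, all of them already called, both LTA libraries lay above both untreated ones. MVD, the decarboxylase that makes isopentenyl pyrophosphate, had 145 and 143 CPM with LTA, against 28.0 and 30.2 CPM untreated. Its log2 fold change, 2.33 ± 0.17 (adjusted p = 3.2e-07), was the largest of the 8 genes. FDPS, the farnesyl pyrophosphate synthase, had 596 and 507 CPM with LTA and 166 and 170 CPM untreated (1.74 ± 0.14, adjusted p = 7.8e-07). It has 8 pseudogenes named after it, so its value is less certain. IDI1, the isomerase before FDPS, rose by 1.15 ± 0.21 (adjusted p = 0.000786). GGPS1, which makes the geranylgeranyl group, rose least, by 0.54 ± 0.19 (adjusted p = 0.033), and shares 37.3% of its exon bases with TBCE on the same strand. PMVK, which adds the second phosphate to mevalonate, had 24.8 and 26.8 CPM with LTA and 23.3 and 20.8 CPM untreated. Its log2 fold change was 0.25 ± 0.19, with a 95% interval from -0.11 to 0.61.

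All 11 genes from squalene to sterols rose with 10 µg/ml LTA at 24 h, with log2 fold changes from 1.07 to 2.04. LSS, which closes the rings of lanosterol, changed most among the 11. It had 430 and 390 CPM with LTA and 95.4 and 107 CPM untreated (2.04 ± 0.18, adjusted p = 1.16e-06). MSMO1, a methyl sterol oxidase that removes methyl groups from lanosterol derivatives, had 187 and 220 CPM with LTA and 57.3 and 45.9 CPM untreated (2.0 ± 0.36). HSD17B7, a ketoreductase of the same demethylation with 2 pseudogenes named after it, rose by 1.70 ± 0.18. DHCR7, the reductase that yields cholesterol, had 268 and 237 CPM with LTA and 72.5 and 88.4 CPM untreated (1.68 ± 0.17). EBP, the sterol isomerase, had 154 and 137 CPM with LTA and 49.3 and 50.1 CPM untreated (1.57 ± 0.19). SQLE, the squalene epoxidase, rose by 1.51 ± 0.32, TM7SF2, a sterol C14 reductase, by 1.34 ± 0.19, and SC5D, a sterol desaturase, by 1.18 ± 0.29. FDFT1, the squalene synthase, rose by 1.14 ± 0.28, and NSDHL, a dehydrogenase of the demethylation steps, by 1.07 ± 0.18. The groups did not overlap for any of these 10 genes, which the test had already called. How often the groups separate over all genes was not computed, so this adds no support to the calls. CYP51A1, the lanosterol demethylase, also rose, by 1.19 ± 0.42, but at 3.70 and 6.44 CPM with LTA and 1.34 and 3.4 CPM untreated, and it shares 79.4% of its exon bases with same-strand genes and has 3 pseudogenes named after it, so its value is uncertain.

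Of the 7 regulators and transport genes, 6 rose with 10 µg/ml LTA at 24 h. SREBF2, which encodes the SREBP that acts mainly on sterol genes, had 473 and 443 CPM with LTA and 200.2 and 240 CPM untreated (1.08 ± 0.14, adjusted p = 4.1e-05). SREBF1, which encodes the SREBP that acts mainly on fatty acid genes, had 139 and 140.0 CPM with LTA and 58.1 and 76.0 CPM untreated (1.08 ± 0.15, adjusted p = 6.78e-05). INSIG1, which retains SCAP while sterols are plentiful, had 436 and 589 CPM with LTA and 193 and 174 CPM untreated (1.5 ± 0.25, adjusted p = 0.000337). The rise of INSIG2, its paralog, was smaller, with 22.5 and 29.8 CPM with LTA and 17.7 and 15.9 CPM untreated (0.66 ± 0.17, adjusted p = 0.00581). STARD4, a carrier of free cholesterol between membranes, had 44.2 and 62.1 CPM with LTA and 22.4 and 17.2 CPM untreated (1.44 ± 0.27, adjusted p = 0.000805). TMEM97, a sterol-responsive membrane protein known as the sigma-2 receptor, rose by 0.68 ± 0.16 (adjusted p = 0.00391). SCAP, the escort of SREBPs, had 132 and 117 CPM with LTA and 123 and 155 CPM untreated. These groups overlapped, and its log2 fold change was -0.13 ± 0.14 with a 95% interval from -0.41 to 0.15.

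Of the 7 fatty acid genes tested, 5 rose with 10 µg/ml LTA at 24 h, and the 2 desaturases of polyunsaturated fatty acids changed most of all 33 genes. FADS2, the delta-6 desaturase, had 161 and 177 CPM with LTA and 14.7 and 14.6 CPM untreated (3.55 ± 0.30, adjusted p = 1.09e-06). It has 1 pseudogene named after it. FADS1, the delta-5 desaturase, had 166 and 210.5 CPM with LTA and 19.0 and 23.2 CPM untreated (3.19 ± 0.36, adjusted p = 1.32e-05). Both LTA libraries were far above both untreated libraries. The genes lie head to head on chromosome 11 (GRCh38.p14), FADS1 at chr11:61799627-61817003 on the minus strand and FADS2 at chr11:61816203-61867354 on the plus strand. ACSS2, which makes acetyl-CoA from acetate, had 158 and 141 CPM with LTA and 46.8 and 48.1 CPM untreated (1.68 ± 0.14, adjusted p = 8.43e-07). SCD, the delta-9 desaturase, had 697 and 831 CPM with LTA and 344 and 361 CPM untreated (1.14 ± 0.24, adjusted p = 0.00198). ACLY, which makes cytosolic acetyl-CoA from citrate, rose by 0.44 ± 0.11 (adjusted p = 0.00701). The pair that commits carbon to fatty acid chains did not pass the test. FASN, the fatty acid synthase, had 594 and 673 CPM with LTA and 443 and 635 CPM untreated (0.26 ± 0.19, 95% interval -0.12 to 0.64). ACACA, the acetyl-CoA carboxylase, had 93.3 and 85.5 CPM with LTA and 81.6 and 85.8 CPM untreated (0.12 ± 0.12, 95% interval -0.12 to 0.36).

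**Figure D2:**
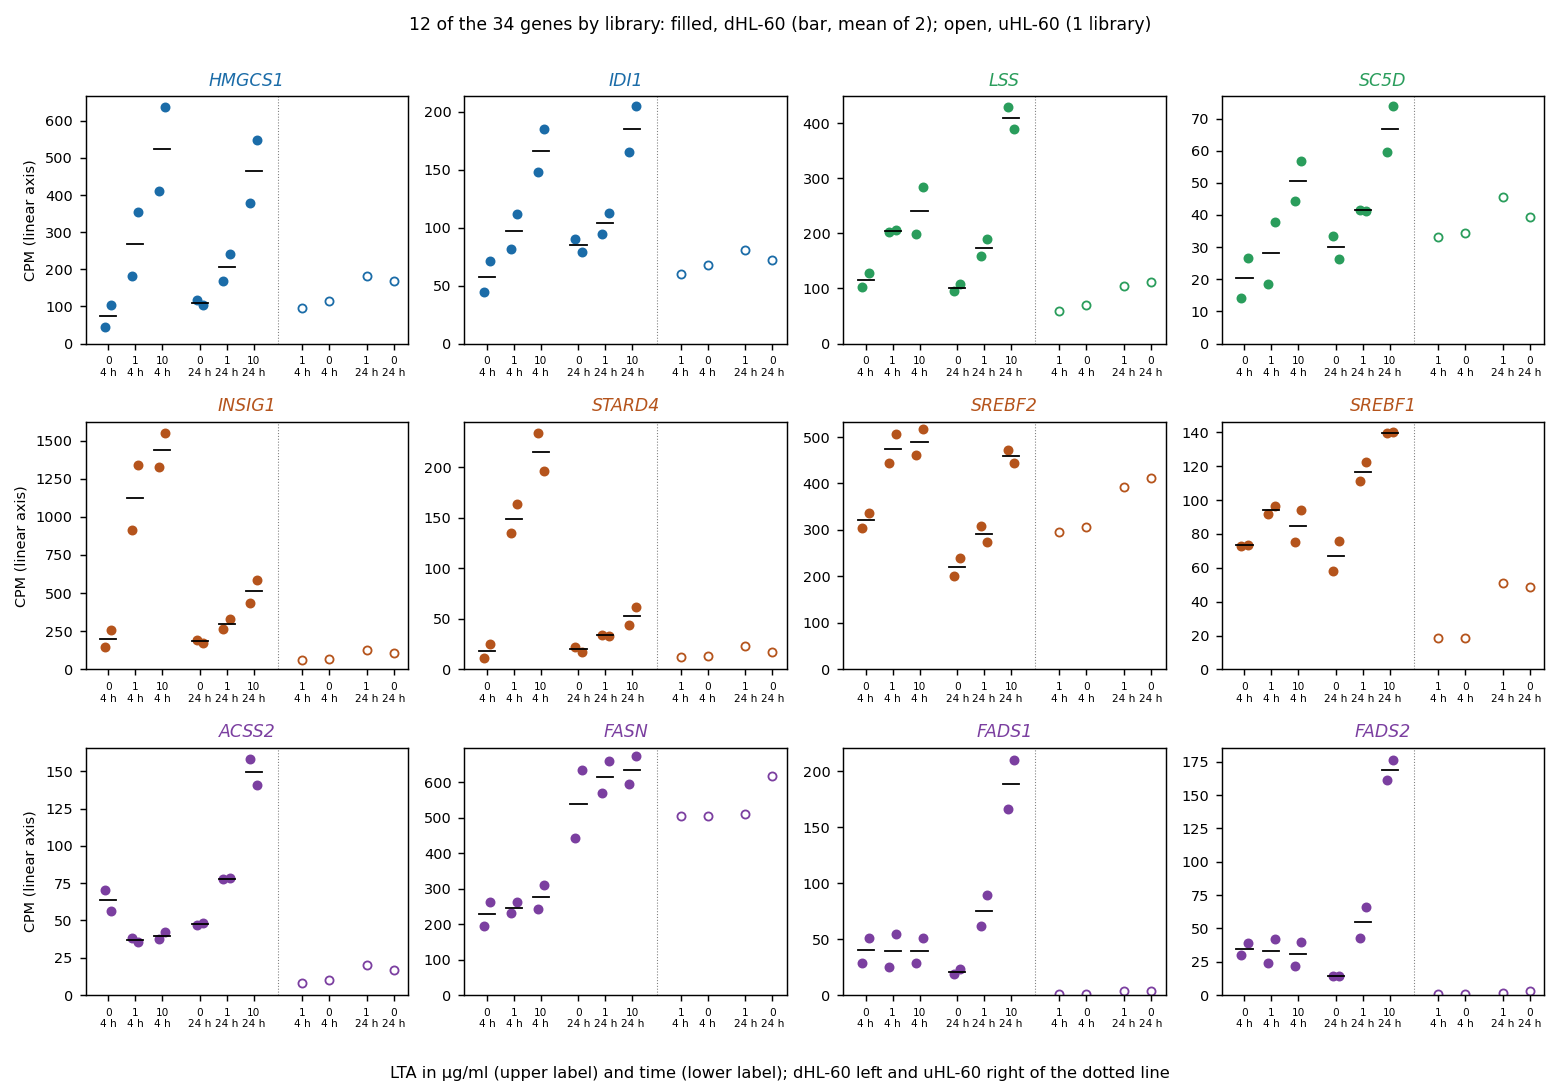
Level in CPM (linear axis) of 12 of the 34 genes in each of the 16 libraries, by LTA dose and time. Filled points are dHL-60 with bars at the mean of 2 libraries, and open points are uHL-60 with 1 library a group. FADS1 and FADS2 reach 166 to 210.5 CPM and 161 to 177 CPM with 10 µg/ml at 24 h, and INSIG1 reaches 1328 and 1547 CPM with 10 µg/ml at 4 h.

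With 1 µg/ml LTA at 24 h, 9 of 33 genes were higher than in untreated dHL-60 and 0 were lower, where 13.9% of all genes tested were called higher and 7.26% lower. The 9 were ACAT2, MVD, LSS, INSIG2, SREBF1, SREBF2, ACSS2, FADS1 and FADS2. The median log2 fold change was 0.48, against 0.01 for all genes. FADS2 had 43.1 and 66.3 CPM with 1 µg/ml, against 14.7 and 14.6 CPM untreated (1.92 ± 0.29, adjusted p = 0.000399). FADS1 had 61.6 and 89.4 CPM with 1 µg/ml, against 19.0 and 23.2 CPM untreated (1.86 ± 0.35, adjusted p = 0.00194). The other 7 rose by 0.42 to 0.82 on the log2 scale. The calls of ACAT2, SREBF1, ACSS2, FADS1 and FADS2 (5 of 9) held whichever library was left out. That of SREBF2 was lost without any 1 of the 4 libraries. It was also lost with upper-quartile scaling, with DESeq2 size factors and with no filter on low counts. The call of INSIG2 was lost without 3 of the 4 libraries, and those of MVD and LSS without 2. This count moved with the settings and was 17 when only the groups compared entered the fit, 17 with no filter on low counts, and 5 without replicate 2 of the 1 µg/ml group.

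The 2 doses were compared directly at 24 h. With 10 µg/ml, 15 of 33 genes were higher than with 1 µg/ml and 0 were lower, where 3.03% of all genes were called higher and 0.792% lower. The median log2 fold change was 0.85 for the 33 genes and 0.00 for all genes. Among the mevalonate genes, MVD had 145 and 143 CPM with 10 µg/ml, against 42.7 and 55.8 CPM with 1 µg/ml (1.56 ± 0.17, adjusted p = 0.000387). FDPS had 596 and 507 CPM with 10 µg/ml, against 201 and 219 CPM with 1 µg/ml (1.40 ± 0.14, adjusted p = 0.000251). Of the sterol genes, 6 passed, led by TM7SF2, with 42.3 and 36.7 CPM at 10 µg/ml and 11.4 and 15.9 CPM at 1 µg/ml (1.53 ± 0.20, adjusted p = 0.00106). The regulators SREBF2 and TMEM97 differed by 0.66 ± 0.14 and 0.65 ± 0.16, calls that were lost without 3 and 4 of the 4 libraries in turn. For INSIG2 the doses differed by 0.03 ± 0.16, which was not called. In fatty acid synthesis, FADS2 differed by 1.64 ± 0.28, FADS1 by 1.33 ± 0.33 and ACSS2 by 0.95 ± 0.14. Leaving out a library left 8 called genes without replicate 1 and 9 without replicate 2 of the 1 µg/ml group, 9 without replicate 1 of the 10 µg/ml group, and 13 without its replicate 2. The 7 calls that held in all 4 cases were ACAT2, MVD, FDPS, LSS, TM7SF2, HSD17B7 and DHCR7. Those of FADS1, IDI1 and TMEM97 were lost in all 4 and with upper-quartile scaling, and FADS1 was also not called by DESeq2. NSDHL and SREBF2 were lost in 3, EBP in 2, and FADS2 and ACSS2 in 1. Counting only the 25 genes tested that have no named pseudogene and little exon overlap, 10 were called. This leaves out FDPS, GGPS1, CYP51A1, HSD17B7, ACAT2, SCD, FADS2 and TMEM97. Of these, HSD17B7 and TMEM97 have 2 pseudogenes named after them, and SCD and FADS2 have 1.

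At 4 h the response was split. With 10 µg/ml LTA, 15 of 33 genes were higher than in untreated dHL-60 and 2 were lower, where 20% of all genes were called higher and 21.3% lower. With 1 µg/ml LTA, 12 were higher and 5 were lower, where 18.7% were called higher and 20.1% lower. At both doses the share of higher genes was above that of all genes, and the share of lower genes was below it. The medians were 0.29 with 10 µg/ml and 0.12 with 1 µg/ml, against -0.04 for all genes with either dose. Against 17 genes called with 1 µg/ml over all libraries, 11 were called without replicate 1 of the untreated group and 8 without replicate 2 of the 1 µg/ml group. Upper-quartile scaling moved the median of all genes by -0.13 with 10 µg/ml and by -0.12 with 1 µg/ml. The 33 genes then gave 14 higher and 4 lower with 10 µg/ml, and 10 higher and 6 lower with 1 µg/ml. The higher share of all calls at 4 h was then 36.4% in place of 48.5% with 10 µg/ml and 37% in place of 48.2% with 1 µg/ml.

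The largest rises at 4 h were in STARD4, a carrier, and INSIG1, a regulator, with the enzyme HMGCS1 level with INSIG1 at 10 µg/ml. STARD4 had 234 and 196 CPM with 10 µg/ml LTA and 135 and 164 CPM with 1 µg/ml LTA, against 11.4 and 24.9 CPM untreated. Its log2 fold changes were 3.56 ± 0.29 with 10 µg/ml (adjusted p = 6.32e-07) and 3.03 ± 0.28 with 1 µg/ml (adjusted p = 2.5e-06). INSIG1 had 1328 and 1547 CPM with 10 µg/ml and 911 and 1341 CPM with 1 µg/ml, against 147 and 256 CPM untreated. Its log2 fold changes were 2.84 ± 0.26 and 2.48 ± 0.26, and all 4 LTA libraries of both genes lay above both untreated ones. SREBF2 rose with either dose, by 0.62 ± 0.14 and 0.57 ± 0.14. HMGCS1 had 412 and 636 CPM with 10 µg/ml and 181 and 355 CPM with 1 µg/ml, against 43.9 and 104.5 CPM untreated (2.82 ± 0.39 and 1.85 ± 0.38). MVD, IDI1, SQLE, LSS, MSMO1, HSD17B7 and DHCR7 also rose with either dose, by 0.93 to 1.82 with 10 µg/ml and by 0.57 to 1.05 with 1 µg/ml. Of the 17 calls with 1 µg/ml, 7 held whichever library was left out, those of HMGCS1, MVD, LSS, HSD17B7, INSIG1, STARD4 and ACSS2. Those of IDI1, SQLE, MSMO1 and DHCR7 were each lost without 2 of the 4 libraries, with log2 values from 0.36 to 1.66 for MSMO1 and from 0.49 to 1.63 for SQLE. Of the 17 calls with 10 µg/ml, 15 held, all but those of SCAP and CYP51A1. CYP51A1 passed at both doses, but with 10 µg/ml its call was lost without any 1 of the 4 libraries. ACAT2, FDPS and SC5D were called with 10 µg/ml and not with 1 µg/ml, by 1.01 ± 0.17, 0.67 ± 0.14 and 1.31 ± 0.30. At 4 h SOD2, which overlaps ACAT2, stood at 3220 to 3635 CPM with 10 µg/ml, against 259.6 to 277 CPM untreated.

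Fatty acid synthesis genes had no rise at 4 h that passed the test, and ACSS2 fell. It had 37.6 and 42.3 CPM with 10 µg/ml and 38.1 and 35.8 CPM with 1 µg/ml, against 70.4 and 56.5 CPM untreated (-0.66 ± 0.14, adjusted p = 0.00217, and -0.78 ± 0.14, adjusted p = 0.000726). SCAP fell likewise, to 57.4 and 65.3 CPM with 10 µg/ml and 68.2 and 58.9 CPM with 1 µg/ml, against 97.4 and 91.4 CPM untreated (-0.61 ± 0.15 and -0.57 ± 0.15). GGPS1, TM7SF2 and TMEM97 were lower with 1 µg/ml, by -0.60 ± 0.21, -0.64 ± 0.21 and -0.58 ± 0.17, and were not called with 10 µg/ml. With 1 µg/ml the call of TM7SF2 was lost without 3 of the 4 libraries in turn, and those of GGPS1 and TMEM97 without 2. FADS1 had 28.7 and 50.7 CPM with 10 µg/ml, against 29.1 and 51.2 CPM untreated, a log2 difference of -0.01 ± 0.35. In this gene replicate 2 exceeded replicate 1 within each of the 6 dHL-60 groups, by 0.28 to 1.09 on the log2 scale. For FASN, SCD, ACACA, ACLY and FADS2 the log2 differences ran from -0.15 to 0.29 with 10 µg/ml. Between the doses at 4 h, 0 of 33 genes were called, where 0.00843% of all genes were called higher and 0% lower. The unadjusted p was under 0.05 for 10 of the 33 and for 1.82% of all genes, DESeq2 called 0, and the log2 difference was positive in 28 of the 33. The highest was HMGCS1, by 0.97 ± 0.37.

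The change of the response over time was tested as an interaction, 24 h minus 4 h. For 10 µg/ml LTA, 16 of 33 genes responded more at 24 h and 2 responded less, where 19.7% of all genes were called higher and 14% lower. For 1 µg/ml LTA, 4 responded more and 2 less, where 13.3% were called higher and 7.41% lower. The 2 genes with the smaller response at 24 h were STARD4 and INSIG1 at both doses. With 10 µg/ml the difference was -2.12 ± 0.38 for STARD4 (adjusted p = 0.000992) and -1.34 ± 0.35 for INSIG1 (adjusted p = 0.0102). With 1 µg/ml it was -2.25 ± 0.38 and -1.77 ± 0.35. The 4 genes with the larger response to 1 µg/ml at 24 h were FADS2, FADS1, ACSS2 and INSIG2. Of these 6 calls, 4 held whichever of the 8 libraries was left out, that of FADS1 was lost without 4 of them, and that of INSIG2 was lost without 7 and by DESeq2. FADS2, FADS1 and ACSS2 differed the other way, with 10 µg/ml by 3.70 ± 0.41 (adjusted p = 2.99e-05), 3.20 ± 0.49 (adjusted p = 0.000331) and 2.34 ± 0.20 (adjusted p = 3.65e-06). ACSS2 changed sign, being lower than untreated at 4 h and higher at 24 h. The other genes with a larger response to 10 µg/ml at 24 h were ACAT2, MVD, FDPS, GGPS1, LSS, TM7SF2, NSDHL, EBP, DHCR7, INSIG2, SREBF1, TMEM97 and SCD, by 0.69 to 1.64. Of the 18 calls, 11 held without any 1 of the 8 libraries. The 7 that did not were GGPS1, LSS, NSDHL, DHCR7, INSIG2, TMEM97 and SCD. HMGCS1, IDI1, SQLE, CYP51A1, MSMO1, HSD17B7 and SC5D, which rose with 10 µg/ml at both times, had differences from -0.73 to 0.18 and were not called. SREBF2, which also rose at both times, differed by 0.47, with a 95% interval from 0.08 to 0.85, and was not called.

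**Figure D3:**
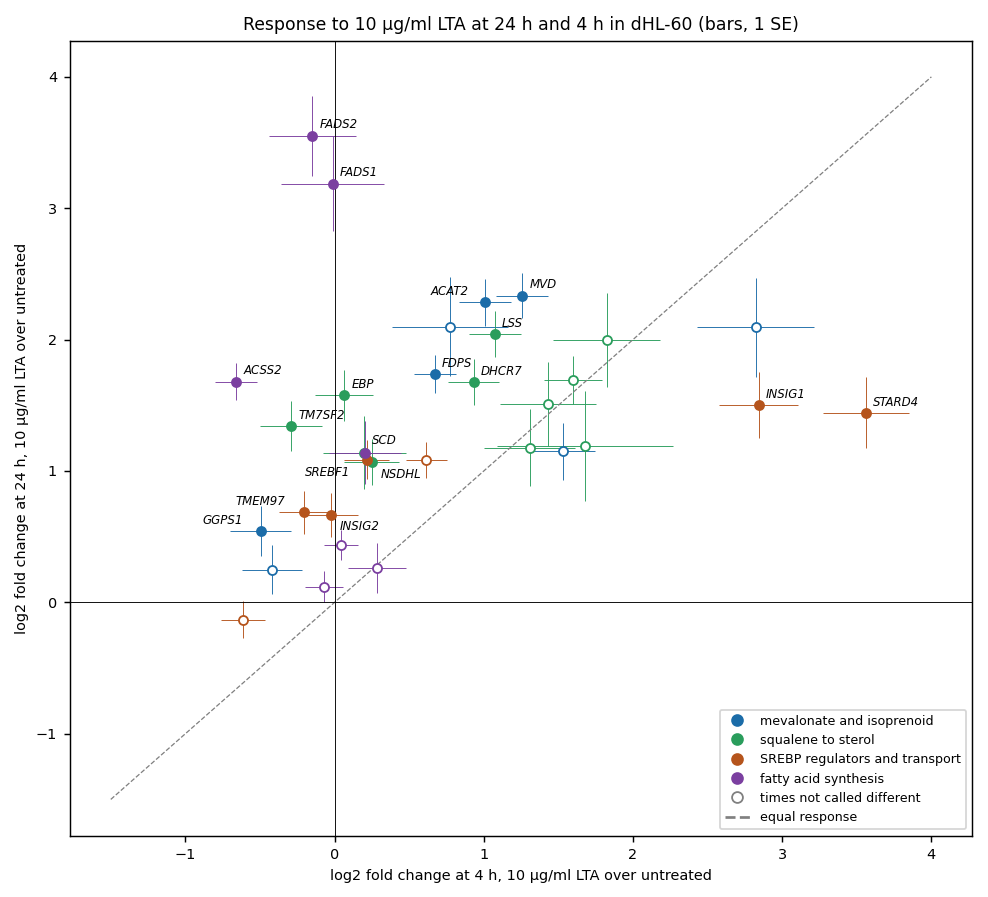
Log2 fold change of 10 µg/ml LTA over untreated dHL-60 at 24 h (vertical) against that at 4 h (horizontal) for 33 genes, with bars of 1 SE. Filled points passed the test of the difference between the times (adjusted p under 0.05), and the dashed line marks equal responses. STARD4 and INSIG1 lie below the line, and FADS1, FADS2 and ACSS2 lie farthest above it.

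The untreated cells also differed between the times. In untreated dHL-60, 7 of 33 genes were higher at 24 h than at 4 h and 4 were lower, where 17.8% of all genes were called higher and 23.1% lower, so the share that moved is near or below the background. The 7 fatty acid genes tested all moved. FASN had 443 and 635 CPM at 24 h and 194 and 263 CPM at 4 h (1.24 ± 0.20, adjusted p = 0.000246). ACACA had 81.6 and 85.8 CPM at 24 h and 36.7 and 37.8 CPM at 4 h (1.17 ± 0.12, adjusted p = 1.15e-05). SCD rose by 0.82 ± 0.24 and ACLY by 0.52 ± 0.11. FADS2, FADS1 and ACSS2 fell, by -1.24 ± 0.30, -0.93 ± 0.35 and -0.41 ± 0.14. Of the 11 calls, 5 held whichever library was left out, those of FASN, ACACA, ACLY, FADS2 and TMEM97. Those of SCD, FADS1 and ACSS2 were lost without 3 of the 4 libraries, with log2 values from 0.56 to 1.16 for SCD. SREBF2 fell by -0.54 ± 0.14, with 200.2 and 240 CPM at 24 h and 305 and 336 CPM at 4 h. SCAP rose by 0.56 ± 0.14, TMEM97 by 0.71 ± 0.16 and CYP51A1 by 1.68 ± 0.57. The calls of SREBF2 and SCAP were lost without 1 of the 4 libraries and that of CYP51A1 without 2. Without replicate 1 of the untreated 24 h group 7 genes were called, and without its replicate 2, 6 were.

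Untreated dHL-60 were then compared with untreated uHL-60 over 6 libraries, in a fit that also holds a term for time. Of the 34 genes, 6 were higher in dHL-60 and 15 were lower, where 29.7% of all genes were called higher and 28.3% lower. The median log2 difference was -0.54, against 0.01 for all genes. Upper-quartile scaling moved the median of all genes by 0.12 and left 6 higher and 10 lower. If the uHL-60 libraries also share a batch, it and the state cannot be told apart.

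Higher in dHL-60 were FADS1, FADS2, TM7SF2, ACSS2, INSIG1 and SREBF1. FADS2 had 30.2 and 39.0 CPM at 4 h and 14.7 and 14.6 CPM at 24 h in dHL-60, against 0.841 and 2.78 CPM in uHL-60 at 4 and 24 h (3.55 ± 0.59, adjusted p = 0.00103). FADS1 had 29.1 and 51.2 CPM at 4 h and 19.0 and 23.2 CPM at 24 h in dHL-60, against 1.04 and 3.91 CPM in uHL-60 (3.52 ± 0.60, adjusted p = 0.00124). TM7SF2 ranged from 14 to 18.6 CPM over the 4 dHL-60 libraries, against 2.77 and 3.24 CPM in uHL-60 (2.42 ± 0.26). ACSS2 ranged from 46.8 to 70.4 CPM, against 10.1 and 16.8 CPM (2.0 ± 0.28). The groups did not overlap in any of these genes, which the test had already called. Without the untreated uHL-60 library of 24 h, FADS2 and FADS1 differed by 5.28 and 5.20, and without that of 4 h by 2.38 and 2.41, all of them called. INSIG1 and SREBF1 were higher by 1.11 ± 0.27 and 1.11 ± 0.32, and the call of SREBF1 was lost without the untreated uHL-60 library of 4 h.

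Lower in dHL-60 were ACAT2, PMVK and FDPS of the mevalonate genes, FDFT1, SQLE, CYP51A1, NSDHL, HSD17B7, EBP and DHCR7 of the sterol genes, TMEM97, and FASN, SCD, ACACA and ACLY of the fatty acid genes. ACACA had 36.7, 37.8, 81.6 and 85.8 CPM in dHL-60, against 151 and 170.4 CPM in uHL-60 (-1.58 ± 0.23, adjusted p = 0.000539). ACLY had 126, 124, 182 and 176 CPM in dHL-60, against 335 and 366 CPM in uHL-60 (-1.27 ± 0.17, adjusted p = 0.000353). Both genes stood closer to uHL-60 at 24 h than at 4 h. CYP51A1 differed most, with 0.514 to 3.4 CPM in untreated dHL-60 and 58.3 and 71.0 CPM in uHL-60 (-5.55 ± 0.40, adjusted p = 1.07e-05), within the overlap with same-strand genes given above. EBP, HSD17B7 and ACAT2 were lower by -1.14 ± 0.15, -1.25 ± 0.20 and -1.18 ± 0.16. The remaining 9 differed by -0.95 to -0.54 on the log2 scale. Of the 21 calls, 14 held without any 1 of the 6 libraries. The other 7 were PMVK, FDPS, DHCR7, SREBF1, TMEM97, FASN and SCD.

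**Figure D4:**
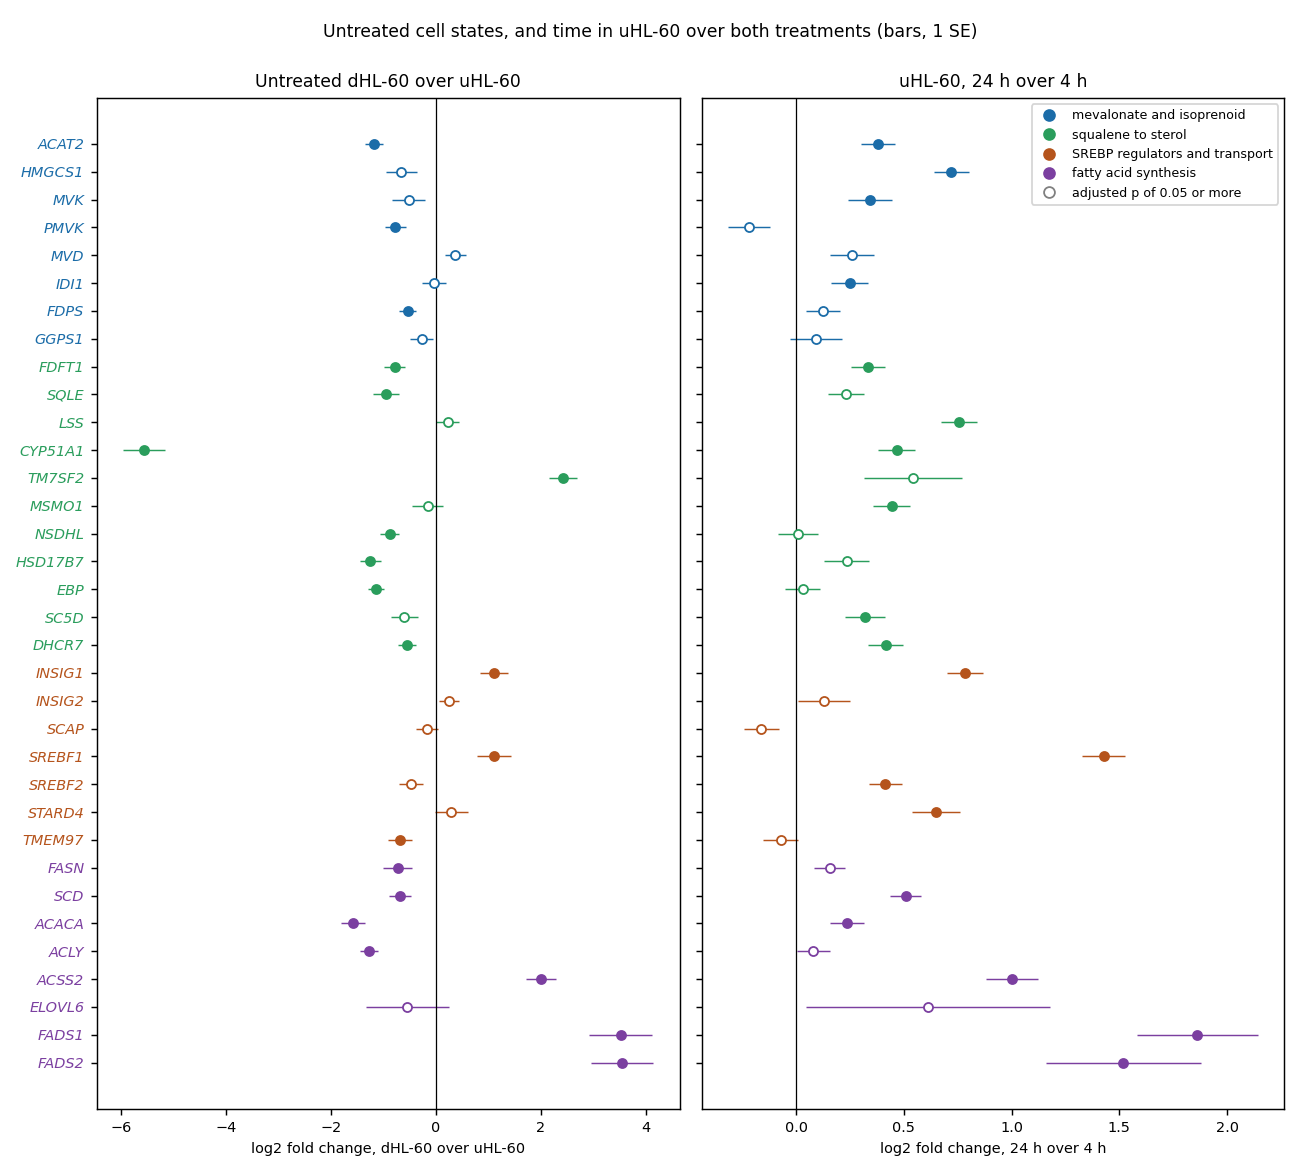
Left, log2 fold change of untreated dHL-60 over untreated uHL-60 for the 34 genes (4 and 2 libraries). Right, log2 fold change of 24 h over 4 h in uHL-60 with LTA as an additive term (2 libraries a time). Bars are 1 SE and open points did not pass an adjusted p of 0.05. CYP51A1 lies at -5.55 and FADS1 and FADS2 at 3.52 and 3.55 in the left panel, and SREBF1 and FADS1 lie at 1.43 and 1.86 in the right one.

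In uHL-60, none of the 34 genes passed the test for 1 µg/ml LTA. Across 4 h and 24 h together, 0 of 34 were called by edgeR, where 0.0998% of all genes were called higher and 0.109% lower. The unadjusted p was under 0.05 for 3 of the 34 and for 2.69% of all genes, and DESeq2 also called 0. Within a time there is 1 library a group, so no test was made. At 4 h, 0 genes were over 1.5-fold higher and 1 was over 1.5-fold lower with LTA, where 1.98% and 1.72% of all genes were. At 24 h the counts were 0 and 2, where 1.75% and 2.08% of all genes were. The gene lower at both times was ELOVL6, with 5 against 12 counts and 6 against 19 counts, and at 24 h FADS2 had 26 counts with LTA against 54 untreated. For STARD4 the LTA library had 12.4 CPM at 4 h, against 13.2 CPM untreated, and 23.5 CPM at 24 h, against 17.2 CPM untreated. INSIG1 had 62.6 CPM with LTA and 70.5 CPM untreated at 4 h, and 125 CPM with LTA and 105 CPM untreated at 24 h. The ratio of LTA to untreated counts, scaled for depth, had a 95% exact binomial interval of 0.823 to 0.966 for INSIG1 at 4 h and of 1.11 to 1.26 at 24 h, which cover counting error only.

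The difference between these responses was tested over 16 libraries, with each lone uHL-60 library assumed to vary like the dHL-60 replicates. At 4 h, 5 of 34 genes responded more to 1 µg/ml LTA in dHL-60 than in uHL-60 and 0 responded less, where 5.43% of all genes were called higher and 4.91% lower. They were STARD4 (3.13 ± 0.48, adjusted p = 0.00114), INSIG1 (2.65 ± 0.44, adjusted p = 0.00176), HMGCS1 (2.11 ± 0.64, adjusted p = 0.0488), HSD17B7 (1.27 ± 0.32, adjusted p = 0.0224) and LSS (1.10 ± 0.30, adjusted p = 0.0314). STARD4 and INSIG1 kept their call whichever dHL-60 library was left out. Without a library of untreated dHL-60 the count was 3 (replicate 1) or 8 (replicate 2), and without replicate 2 of the LTA group it was 2. At 24 h, 0 of 34 were called, where 1.35% were called higher and 0.278% lower. The unadjusted p was then under 0.05 for 5 of the 34 and for 14.2% of all genes, and DESeq2 called 1. FADS2 had the largest difference at 24 h, 2.68 ± 0.68 (adjusted p = 0.0668).

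Many of these genes differed between 24 h and 4 h in uHL-60, in a comparison added after the data were seen. If the libraries of a time also share a batch, it and the time cannot be told apart. Over both treatments, 19 of 34 genes were higher at 24 h than at 4 h and 0 were lower, where 4.02% of all genes were called higher and 3.97% lower. The median log2 fold change was 0.34, against 0.00 for all genes. FADS1 had 3.86 and 3.91 CPM at 24 h with and without LTA, against 1.09 and 1.04 CPM at 4 h (1.86 ± 0.28, adjusted p = 1.47e-08). SREBF1 had 51.1 and 48.6 CPM at 24 h, against 18.2 and 18.8 CPM at 4 h (1.43 ± 0.10, adjusted p = 1.95e-43). ACSS2 had 20.5 and 16.8 CPM at 24 h, against 8.4 and 10.1 CPM at 4 h (1.00 ± 0.12). In each of these genes, which the test had already called, both 24 h libraries were above both 4 h libraries. INSIG1, LSS, HMGCS1 and STARD4 were higher by 0.78 ± 0.08, 0.76 ± 0.08, 0.72 ± 0.08 and 0.65 ± 0.11. This fit has 1 residual degree of freedom per gene, with the LTA and untreated libraries of a time standing in as replicates. Its SEs and p-values thus rest largely on a spread estimated over all genes and do not measure variation between cultures. DESeq2 called 9 of the 34, losing among others SREBF1, FADS1 and ACSS2.

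Per kilobase of exon, the most abundant of the 34 genes in untreated dHL-60 were INSIG1, SCD and FDPS, at 52.7, 51.6 and 47.8 CPM per kb. In untreated uHL-60 they were SCD, FDPS and ACLY, at 78.2, 67.6 and 67.2 CPM per kb. INSIG1 stood at 24.1 CPM per kb in uHL-60, the thirteenth of the 34. ELOVL6 was lowest in both, at 0.0891 CPM per kb in dHL-60 and 0.108 CPM per kb in uHL-60.

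Genes around these pathways that are not among the 34 were read from 4 further lists. With 10 µg/ml LTA at 24 h in dHL-60, 10 of 17 tested genes of fatty acid supply, elongation and activation were higher and 2 were lower, where 23.6% of all genes were called higher and 19% lower. The counts of the other lists below are read against the same shares, and none of the 4 lists was tested as a set. ME1, the malic enzyme that supplies NADPH, was higher by 1.88 ± 0.23 (adjusted p = 2.88e-05) and ACSL1, an acyl-CoA synthetase, by 1.55 ± 0.18 (adjusted p = 1.46e-05), while GPAM, which starts glycerolipid synthesis, was lower by -0.62 ± 0.23 (adjusted p = 0.0429) and ACSL5 by -0.48 ± 0.12 (adjusted p = 0.0069). At 4 h with 10 µg/ml, ME1 and ACSL1 were also higher, by 1.80 ± 0.22 and 3.20 ± 0.19, and ACSL5, lower at 24 h, was higher by 1.30 ± 0.12 (adjusted p = 2.97e-06). Of 13 genes of sterol storage and transport, 5 were higher and 2 lower. NCEH1, a cholesteryl ester hydrolase, was higher by 1.27 ± 0.15 and GRAMD1A, a sterol transfer protein, by 0.92 ± 0.22, while its paralog GRAMD1B was lower by -1.20 ± 0.18 and MYLIP, a ubiquitin ligase for lipoprotein receptors, by -1.20 ± 0.27. Of 10 genes of SREBP processing and sterol-regulated degradation, 1 was higher, RNF145 by 0.59 ± 0.11, and 3 were lower, among them ERLIN1 at -0.78 ± 0.13 and UBE2G2 at -0.54 ± 0.19. Of 11 tested genes that use isoprenoids, 0 were higher and 1 was lower, NUS1 at -0.53 ± 0.20 (adjusted p = 0.0484), which at 4 h was higher by 1.08 ± 0.21 (adjusted p = 0.00104). The medians of these 4 lists were 0.72, 0.19, -0.22 and -0.11, against 1.34 for the 33 genes.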

How the data were processed

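The authors deposited whole-number read counts per gene symbol for 16 libraries, made from total RNA with a stranded mRNA kit, per the labels' protocols. GRCh38, HISAT2 2.1.0, featureCounts 2.0.1 (Subread), fastp 0.20.0, edgeR 3.36.0 and DESeq2 1.28.0 appear, without role or order, per the submitters' processing notes. The annotation, and whether counting used strand, were not given in the sources used here. The 4 uHL-60 columns follow a plain character order of the symbols while the table's symbols do not. They were realigned by sorting. Over the 1343 symbols whose place differs, the rank correlation of uHL-60 with dHL-60 levels was 0.229 as deposited and 0.74 realigned, against 0.914 over symbols in the same place. As deposited, INSIG1 reads 0 counts in uHL-60.

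Counts were tested in edgeR 4.0.16 (R 4.3.3) with TMM factors, filterByExpr and the quasi-likelihood F test, called at a Benjamini-Hochberg adjusted p under 0.05 over all genes tested. The standard error is the absolute log2 fold change divided by the square root of F, and 95% intervals use a normal approximation. Comparisons within dHL-60 were fitted over its 12 libraries, cell state over 6 untreated libraries, uHL-60 over 4, and differences between the states over 16. The comparisons with LTA at one time share their untreated libraries. Groups that did not overlap are described for genes already called, without the share of all genes whose groups separate, and are not further support for a call. Alternatives were DESeq2 size factors, upper-quartile scaling, no filter, DESeq2 1.42.0, the replicate number as a block, the compared groups alone and leaving out each library. Replicates of a group differed beyond sampling noise (chi-square per degree of freedom 10.3 to 18.9), so none was counted as a duplicate. The code was tested on simulated data.

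All 34 genes were named, and of each further list the 2 called genes with the highest and the 2 with the lowest log2 fold change with 10 µg/ml LTA at 24 h. The members and lists were chosen with earlier results of these data known.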

Additional observations from a re-analysis of the deposited data

Results flagged for a closer look

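The response of 18 genes to 10 µg/ml LTA and of 6 genes to 1 µg/ml LTA differed between 24 h and 4 h by the interaction test (edgeR, adjusted p under 0.05). Values are log2 differences, 24 h minus 4 h. With 10 µg/ml, STARD4 and INSIG1 responded less at 24 h, by -2.12 and -1.34. FADS2, FADS1 and ACSS2 responded more, by 3.70, 3.20 and 2.34. Of the sterol genes, TM7SF2, EBP, LSS, NSDHL and DHCR7 differed by 1.64, 1.51, 0.97, 0.82 and 0.74. Of the mevalonate genes, ACAT2, MVD, FDPS and GGPS1 differed by 1.27, 1.08, 1.07 and 1.04. TMEM97, SREBF1, INSIG2 and SCD differed by 0.89, 0.87, 0.69 and 0.94. With 1 µg/ml, STARD4 and INSIG1 differed by -2.25 and -1.77, and FADS2, FADS1, ACSS2 and INSIG2 by 1.97, 1.86, 1.51 and 0.74. The calls of INSIG2 and FADS1 with 1 µg/ml were lost without 7 and 4 of the 8 libraries in turn. Both doses were set against the same untreated libraries.

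The response to 1 µg/ml LTA at 4 h differed between dHL-60 and uHL-60 for 5 genes by the same kind of test. STARD4, INSIG1, HMGCS1, HSD17B7 and LSS differed by 3.13, 2.65, 2.11, 1.27 and 1.10, dHL-60 minus uHL-60, with 1 uHL-60 library a group.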

How the results depend on the processing

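Counts of called genes are given over the 33 or 34 tested. With 1 µg/ml LTA at 24 h, 9 genes were called, against 17 with no filter, 15 with the replicate block, 17 with only the groups compared, and 5 to 7 when 1 library was left out. For 10 against 1 µg/ml at 24 h, 15 were called, against 24 with no filter, 24 with only the groups compared, and 8 to 13 without 1 library. For 10 against 1 µg/ml at 4 h, 0 were called, against 4 with no filter. Leaving out 1 library gave 8 to 17 genes for 1 µg/ml at 4 h (17 with all), 6 to 13 for untreated 24 h against 4 h (11 with all) and 12 to 20 for the 10 µg/ml response between the times (18 with all). For the 1 µg/ml response between the times, 6 were called, and 10 with the replicate block. For uHL-60 at 24 h against 4 h, 19 were called, and 9 by DESeq2. For the response at 4 h in dHL-60 minus uHL-60, 5 were called, against 3 with upper-quartile scaling, 9 with no filter, and 2 to 8 without 1 library. At 24 h 0 were called, against 3 with no filter and 1 by DESeq2. INSIG2 in dHL-60 against uHL-60 was 0.25, and -2.47 with the columns as deposited, where it carries the counts of INSIG1. Apart from that realignment, the causes were not tested.

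With 10 µg/ml LTA at 24 h, 29 genes were called, 27 by DESeq2, and 29 with the replicate numbers of the untreated 24 h libraries exchanged in the block. The labels do not say that replicate numbers mark a shared culture, and there are only 2 numbers. Deviations of same-numbered libraries correlated at 0.12 to 0.33 over 12603 genes between the 3 groups of 4 h (0.38 to 0.58 over the members). Between the other pairs of groups they correlated at -0.17 to 0.24 (-0.41 to 0.63 over the members). The numbers were not taken as pairs, and whether libraries of the same number share a source, at 4 h or across the times, was not tested. For 10 against 1 µg/ml at 24 h the block gave 21 genes. No call of a gene was reversed, and all 122 calls tested under the replicate block were kept. Upper-quartile scaling moved the higher share of all calls from 65.7% to 55% for 1 µg/ml at 24 h and from 50.3% to 62.4% for uHL-60 over time. Genes of low counts, such as ELOVL6 and CYP51A1 in dHL-60, are limited by depth.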
